A study of Mus musculus with 12 samples.

Results

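The genes described here are 8 genes of the dystrophin complex and its neighbours at the muscle fibre membrane: Dmd, Utrn, Dag1, Sgca, Sgcb, Sgcd, Dtna and Dysf. They were taken by gene name, and all 8 were found among the 15344 genes of the deposited tables. Their values came from mRNA sequencing of mouse quadriceps at 6 months of age, with 4 libraries in each of 3 groups. Mice labelled WT were on a C57BL/6 background and received no treatment. Mice labelled KO, also C57BL/6, carried a knock-out of Gaa and were given PBS. Gaa encodes acid alpha-glucosidase, the lysosomal enzyme that breaks down glycogen and is deficient in Pompe disease. Mice labelled AAV had the same GAA knock-out genotype and received AAV2/8-LSPhGAApA, a vector that expresses human GAA from a liver-specific promoter, by tail vein at 2e12 vg/kg. The promoter limits the transgene to liver, which secretes the enzyme into blood. The WT animals were untreated, so that genotype and PBS injection cannot be told apart between WT and KO.

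Dystrophin, encoded by Dmd, is a long rod-like protein that ties the actin cytoskeleton to a group of membrane proteins, and utrophin (Utrn) is its close relative, found mainly at the neuromuscular junction in adult fibres. Dystroglycan (Dag1) spans the membrane and binds laminin outside the fibre through its sugar chains, while the sarcoglycans (Sgca, Sgcb, Sgcd) form a subcomplex beside it and dystrobrevin (Dtna) and the syntrophins lie on the cytoplasmic side. Dysferlin (Dysf) is a calcium-binding membrane protein needed to reseal torn fibres. Inherited loss of Dmd, of a sarcoglycan or of Dysf causes muscular dystrophy.

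Values are read counts that the authors divided by 1 size factor for each library, called normalized counts below. The libraries held between 22122233 and 47379737 counted reads. Gaa went against the labels. Its normalized counts were 342.9, 14640.2, 323.8 and 460.3 under the label WT, 12151, 13074.5, 11936.2 and 12895 under KO, and 946.8, 587, 499.6 and 9854.3 under AAV. It was thus high in every KO library, in WT replicate 2 and in AAV replicate 4, and low in the other 6. Counts per gene do not show which exons were read, and the part of Gaa that was deleted is not given in the sources used here, so that these counts alone do not check the labels. Groups are therefore named by their labels throughout, and members' differences are also given without WT replicate 2, without AAV replicate 4 or without both. Defining markers of mature muscle fibres (Acta1, Ckm, Myh4, Ttn, Neb, Tnnt3, Mylpf) were at 0 in no group, and their summed level was at least 3776000 normalized counts in every library.

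Groups were compared by limma on log2(normalized count + 1) with Benjamini-Hochberg adjustment over all genes tested, and an adjusted p under 0.05 is referred to as a call. Between the groups labelled KO and WT, 1 of the 8 members was called, where 27.6% of all 14859 genes tested were called. None reached an absolute log2 fold change of 1 as well (0 of 8, against 13.9% of all genes), and 1 member had groups that did not overlap, against 28.3% of all genes. For AAV against KO, 1 of the 8 was called (26.3% of 14894 genes) and also reached the fold threshold (8.98% of all genes), and 2 had groups that did not overlap (30.6% of all genes). Between AAV and WT, limma called 0 of 8 (1.29% of 14939 genes), with 0 of 8 past the fold threshold (0.951%) and 1 not overlapping (11.7%). In that last comparison 3 of 8 had an unadjusted p under 0.05 (2719 of 14939 genes did), and edgeR and DESeq2 on the recovered reads called 0 and 0. The median absolute log2 difference of the members was 0.34, 0.24 and 0.33 in the 3 comparisons, beside 0.42, 0.39 and 0.3 over all genes tested. The members called were Sgcd, which was lower in KO than in WT, and Dag1, which was lower in AAV than in KO. With 8 members, counts of 0 or 1 do not set them apart from all genes in either direction. Counts over all genes moved with the libraries and settings too: between KO and WT, 7163 of 14796 genes were called without WT replicate 3 (4 of the 8 members) and 6615 of 14859 with array weights, which count a library less the more it varies (2 of the 8), and between AAV and KO 2179 of 14894 with the replicate number as a block (1 of the 8). With a library left out, calls over all genes ran from 2353 to 7163 between KO and WT and from 1961 to 5071 between AAV and KO. The KO libraries enter 2 of these comparisons, which are therefore not independent.

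**Figure D1:**
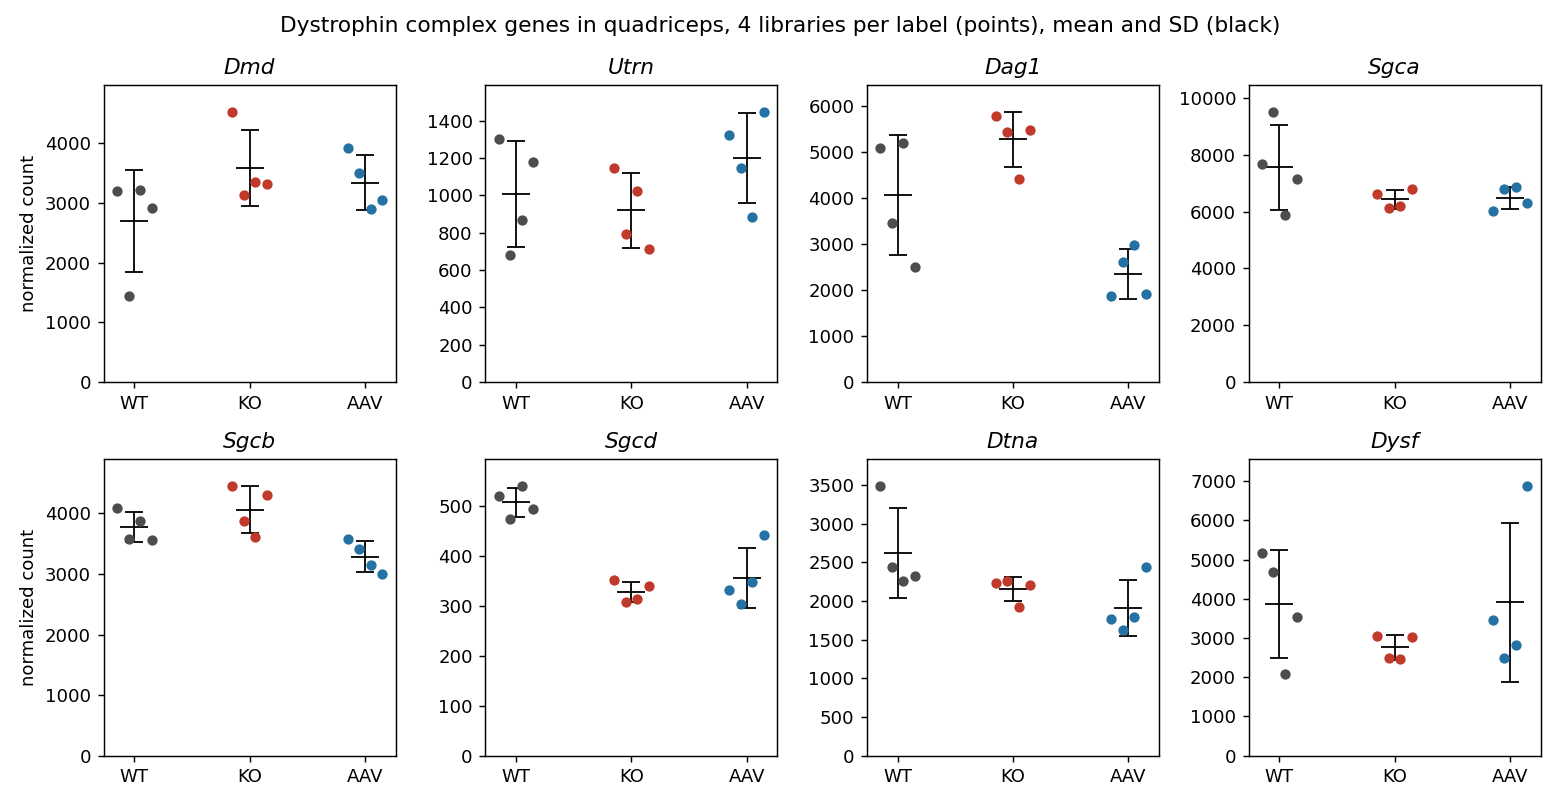
Normalized counts (vertical axis, linear from 0) of the 8 members in each library (points, 4 per label), with the mean and SD of each group in black. Sgcd in the libraries labelled WT (474.1 to 540.5) lies above all the others, and Dag1 in the libraries labelled AAV (1871.6 to 2967.9) lies below all of those labelled KO (4405.1 to 5778.9).

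**Figure D2:**
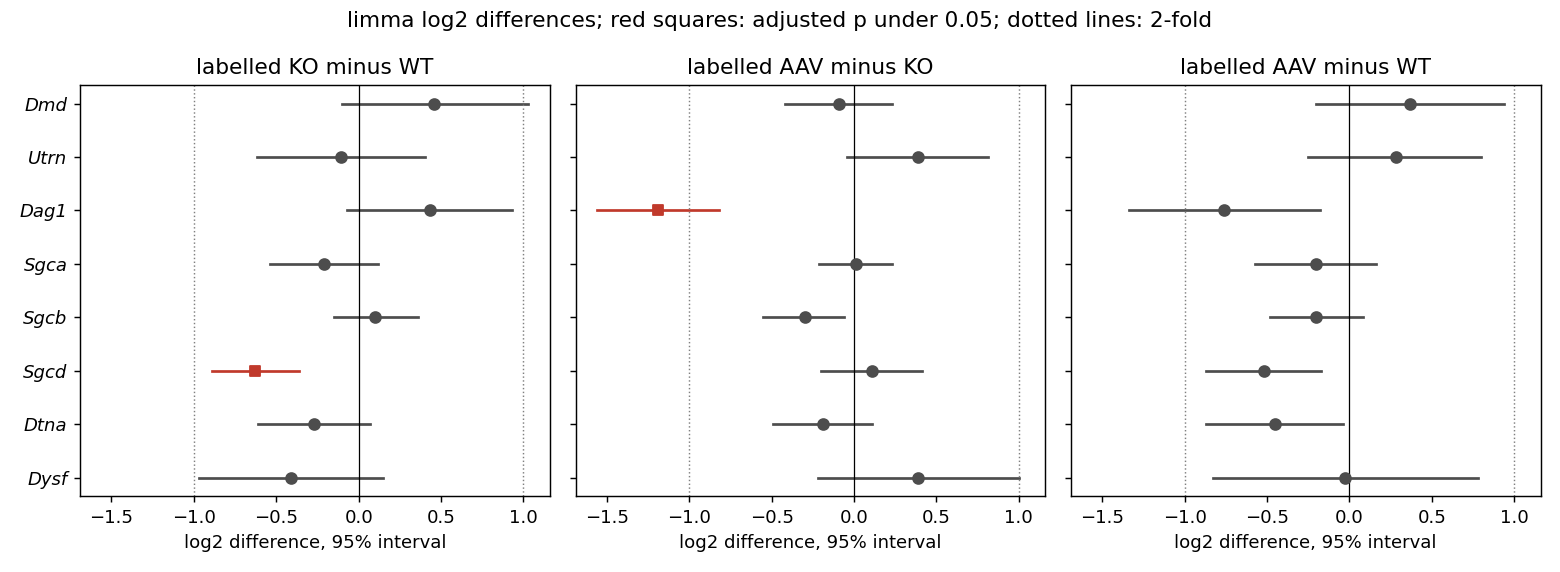
Difference of each member on the log2 scale (horizontal axis) with its 95% interval from limma, in 1 panel per comparison, with red squares for an adjusted p under 0.05. The 2 red squares are Sgcd in KO against WT (-0.63) and Dag1 in AAV against KO (-1.19).

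Dmd lies on the X chromosome (GRCm38, chrX:82948870-85206141, + strand) and its annotated exons cover 23801 bases together. Its normalized counts were 3206.9, 1443.6, 3225.4 and 2920.9 in WT, 4526.7, 3128.2, 3349 and 3324.6 in KO, and 3915.5, 3510.7, 2897 and 3046.8 in AAV. WT replicate 2 was lowest of all 12 and KO replicate 1 highest, and each pair of groups overlapped. The mean was 2699 ± 849 (SD, n = 4) in WT, 3582 ± 637 in KO and 3342 ± 463 in AAV. Dmd was not called in any of the 3 comparisons. Its log2 difference was 0.46 between KO and WT (95% interval -0.1 to 1.03, adjusted p = 0.187, limma) and became 0.19 without WT replicate 2. With a correction for gene length it was 0.13. The interval of -0.1 to 1.03 still holds a 2-fold rise. For AAV against KO it was -0.09 (interval -0.42 to 0.23, adjusted p = 0.647, limma), and -0.05 without AAV replicate 4. The AAV libraries differed from WT by 0.37 (interval -0.2 to 0.94, adjusted p = 0.467, limma), which was 0.09 without WT replicate 2 and 0.13 without both libraries.

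Utrn (chr10:12382188-12869365, - strand) was read at 1301.2, 678.2, 868.4 and 1177.2 in WT, 1145.9, 793.6, 1021.3 and 712.7 in KO, and 1320.3, 1146.7, 884.6 and 1446.3 in AAV, as normalized counts. All 3 groups overlapped, with means of 1006 ± 284, 918.4 ± 200 and 1199 ± 243 (SD, n = 4 each). The log2 difference was -0.11 between KO and WT (interval -0.62 to 0.4, adjusted p = 0.732), 0.39 between AAV and KO (interval -0.04 to 0.81, adjusted p = 0.153) and 0.28 between AAV and WT (interval -0.25 to 0.8, adjusted p = 0.554), all by limma. Without WT replicate 2 the difference between KO and WT was -0.29, without AAV replicate 4 that between AAV and KO was 0.29, and without both that between AAV and WT was 0.0033. The difference between KO and WT was also 0.027 without WT replicate 1 and -0.41 with a correction for gene length. Between AAV and KO, Utrn was called in 1 of 21 alternative fits: without AAV replicate 3 the difference was 0.53 (adjusted p = 0.0457, limma). In that fit 5071 of 14858 genes were called in all.

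Since both genes were read from the same libraries, their ratio does not depend on the size factor. Utrn to Dmd was 0.406, 0.47, 0.269 and 0.403 in WT, 0.253, 0.254, 0.305 and 0.214 in KO, and 0.337, 0.327, 0.305 and 0.475 in AAV. The group means were 0.387 ± 0.0843, 0.257 ± 0.0372 and 0.361 ± 0.077 (SD, n = 4 each). Every AAV ratio lay above every KO ratio, by a narrow margin at AAV replicate 3 and KO replicate 3, whereas the WT range overlapped both others. These ratios were described without a test.

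Dag1 lies on chromosome 9 (chr9:108204634-108263958, - strand), with 6357 exonic bases in 5 blocks. The 250 bases upstream of its first RefSeq start (GRCm38.p6, chr9:108263959-108264208, - strand) are shown because Dag1 was the member with a difference of more than 2-fold, and the capitals mark an E-box (CANNTG), the short motif bound by myogenic factors such as MyoD.
Dag1 upstream: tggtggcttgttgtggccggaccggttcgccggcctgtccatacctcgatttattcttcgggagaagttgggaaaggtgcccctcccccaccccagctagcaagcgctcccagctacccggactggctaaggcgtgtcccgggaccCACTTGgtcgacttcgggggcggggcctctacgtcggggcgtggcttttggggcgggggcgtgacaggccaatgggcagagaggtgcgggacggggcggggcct
A search of both strands found 1 E-box, 3 GC boxes (GGGCGG), 1 CCAAT motif and 0 TATAAA motifs, and 67.6% of the bases were G or C. Of 32536 mouse windows of the same length, 66.2% held an E-box, 33% a GC box, 33.8% a CCAAT motif and 12.3% a TATAAA motif. The presence of these letters is a description only.

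Dag1 was the lowest in the libraries labelled AAV. Libraries gave normalized counts of 5082.7, 3455.9, 5200.9 and 2502.6 in WT, 5778.9, 5437.9, 4405.1 and 5470.5 in KO, and 1871.6, 2617.6, 2967.9 and 1906.1 in AAV. All 4 AAV libraries were below all 4 KO libraries, and WT libraries spread over nearly the whole range between them. The mean was 4061 ± 1310 in WT, 5273 ± 599 in KO and 2341 ± 541 in AAV (SD, n = 4 each). Dag1 fell by 56.3% from KO to AAV, a log2 difference of -1.19 ± 0.17 (SE; 95% interval -1.56 to -0.82; adjusted p = 0.0028, limma), and edgeR and DESeq2 gave adjusted p-values of 0.0037 and 2.17e-08. The exact two-sided permutation test gave p = 0.0286, the smallest that 4 against 4 allows. Without AAV replicate 4 the difference was -1.1 (adjusted p = 0.00414, limma). Between KO and WT the difference was 0.43 (interval -0.07 to 0.93, adjusted p = 0.17, limma). Of 21 alternative fits of this comparison, 1 called Dag1: without WT replicate 3 the difference was 0.57 (adjusted p = 0.0426, limma). In that fit 7163 of 14796 genes were called in all. Without WT replicate 4 the difference was 0.22 (adjusted p = 0.39, limma). Between AAV and WT it was -0.76 (interval -1.34 to -0.18), which did not pass the correction for all genes (adjusted p = 0.171, limma). Without WT replicate 2 the difference between KO and WT was 0.38, and without both WT replicate 2 and AAV replicate 4 that between AAV and WT was -0.73.

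Of the 3 sarcoglycan members, the smallest counts belonged to Sgcd (chr11:46896253-47988969, - strand, 8257 exonic bases), which encodes the delta subunit at the core of the subcomplex. Its normalized counts were 520.3, 474.1, 540.5 and 494.5 in WT, 350.7, 307.9, 314.3 and 339.5 in KO, and 330.8, 304, 348.4 and 441.4 in AAV. Every WT library was above every KO and every AAV library. The highest AAV value was that of replicate 4, which also had high Gaa counts. Means were 507.4 ± 29.1 in WT, 328.1 ± 20.3 in KO and 356.2 ± 59.7 in AAV (SD, n = 4 each). Sgcd fell by 35.3% between WT and KO, a log2 difference of -0.63 ± 0.12 (SE; 95% interval -0.89 to -0.36; adjusted p = 0.00604, limma), with adjusted p-values of 0.00533 by edgeR and 1.87e-06 by DESeq2. The exact two-sided permutation test gave p = 0.0286, again its smallest value. Without WT replicate 2 the difference was -0.66 (adjusted p = 0.0104, limma). Between AAV and WT the log2 difference was -0.52 (interval -0.87 to -0.17), with groups that did not overlap but an adjusted p of 0.133 (limma), and with WT replicate 2 and AAV replicate 4 both left out it was -0.66. The difference between AAV and KO was 0.11 (interval -0.2 to 0.41, adjusted p = 0.585, limma) and -0.0018 without AAV replicate 4.

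Sgcb (chr5:73632749-73647790, - strand) encodes the beta subunit. Libraries gave normalized counts of 4081.9, 3569.7, 3874.7 and 3565.6 in WT, 4457.1, 3868.7, 3613.3 and 4306.9 in KO, and 3583.4, 3415, 3140.3 and 3005.5 in AAV. The AAV libraries were all below the KO libraries, although the highest AAV and the lowest KO value were close. The log2 difference between AAV and KO was -0.3 ± 0.11 (SE; interval -0.55 to -0.06), with an adjusted p of 0.0634 by limma, 0.0528 by edgeR and 0.0238 by DESeq2, so that the tool decided the call. Between KO and WT it was 0.1 (interval -0.15 to 0.36, adjusted p = 0.51, limma) and between AAV and WT -0.2 (interval -0.48 to 0.08, adjusted p = 0.416, limma). Leaving out AAV replicate 4 gave -0.26 for AAV against KO (adjusted p = 0.113, limma), leaving out WT replicate 2 gave 0.08 for KO against WT, and leaving out both gave -0.18 for AAV against WT.

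The alpha subunit gene, Sgca (chr11:94962791-94976327, - strand), had the highest mean count of the 8 in every group. Normalized counts were 7693.3, 9510, 5886.7 and 7145.8 in WT, 6623.3, 6108.4, 6179.1 and 6806.5 in KO, and 6018.7, 6778.7, 6849.8 and 6286.3 in AAV. KO and AAV libraries lay within the same narrow range, and the WT libraries were more spread out on both sides of it. Means were 7559 ± 1500, 6429 ± 339 and 6483 ± 398 (SD, n = 4 each). The log2 difference was -0.21 between KO and WT (interval -0.54 to 0.12, adjusted p = 0.294), 0.01 between AAV and KO (interval -0.21 to 0.23, adjusted p = 0.937) and -0.2 between AAV and WT (interval -0.57 to 0.16, adjusted p = 0.531), all by limma. Without WT replicate 3, which had the lowest WT count, the difference between KO and WT was -0.33 (adjusted p = 0.0443, limma), and without WT replicate 2, which had the highest, it was -0.1 (adjusted p = 0.597, limma). Leaving out AAV replicate 4 gave 0.03 for AAV against KO, and leaving out both libraries gave -0.07 for AAV against WT.

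Ratios of the sarcoglycans to Dag1 within a library brought these differences together. Sgcd to Dag1 was 0.102, 0.137, 0.104 and 0.198 in WT, 0.0607, 0.0566, 0.0714 and 0.0621 in KO, and 0.177, 0.116, 0.117 and 0.232 in AAV. The KO libraries were thus the lowest 4 of the 12, and the WT and AAV libraries overlapped. Sgca to Dag1 averaged 2.06 ± 0.87 in WT, 1.23 ± 0.127 in KO and 2.85 ± 0.482 in AAV, and Sgcb to Dag1 averaged 1 ± 0.308, 0.773 ± 0.0456 and 1.46 ± 0.368 (SD, n = 4 each). For both ratios every AAV library was above every KO library, while WT overlapped with both groups. Dag1 is the denominator of all 3 ratios, so that they are not separate observations, and no test was made.

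**Figure D3:**
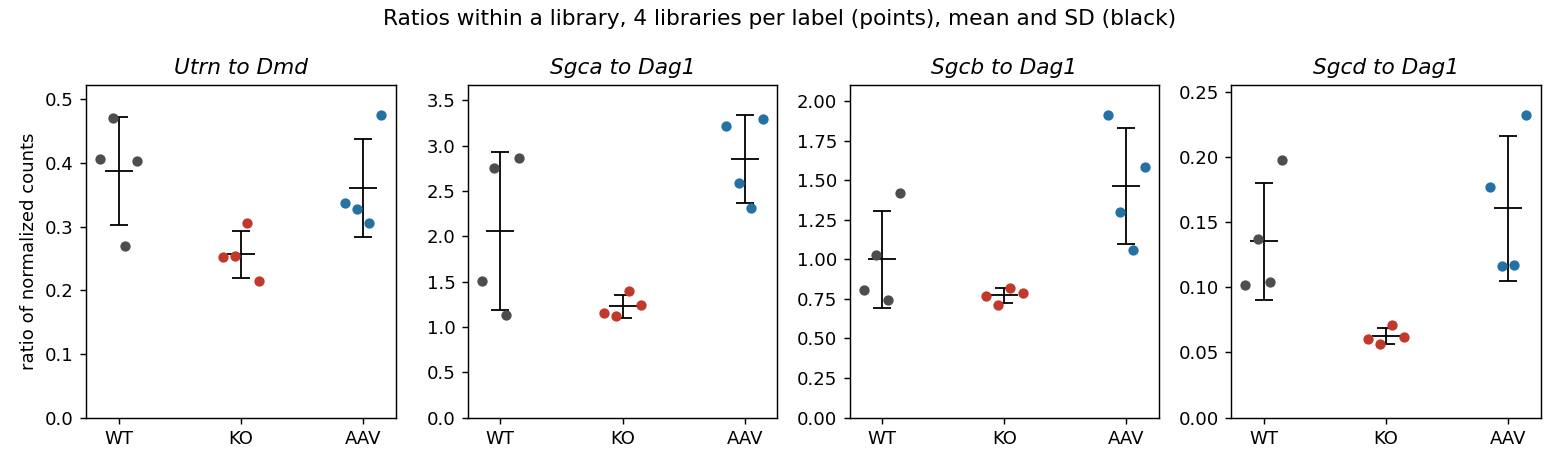
Ratios of normalized counts within a library (vertical axis, linear from 0), 4 libraries per label as points, with the mean and SD of each group in black. In all 4 panels the AAV libraries lie above the KO libraries, for example 0.116 to 0.232 against 0.0566 to 0.0714 for Sgcd to Dag1.

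On the cytoplasmic side, Dtna (chr18:23415135-23659715, + strand) gave normalized counts of 3489.2, 2433.3, 2254.7 and 2322.1 in WT, 2231, 2255.9, 1916.5 and 2201.6 in KO, and 1771, 1630, 1791.6 and 2436.5 in AAV. WT replicate 1 was far above the other WT libraries and AAV replicate 4 above the other AAV libraries, and each pair of groups overlapped. Means were 2625 ± 581, 2151 ± 158 and 1907 ± 360 (SD, n = 4 each). The log2 difference was -0.27 between KO and WT (interval -0.61 to 0.07, adjusted p = 0.208), -0.19 between AAV and KO (interval -0.49 to 0.11, adjusted p = 0.313) and -0.45 between AAV and WT (interval -0.87 to -0.04, adjusted p = 0.242), all by limma. Without WT replicate 2 the first of these was -0.29, without AAV replicate 4 the second was -0.31 (adjusted p = 0.0536, limma), and without both the third was -0.61. The first was -0.12 without WT replicate 1 and -0.56 with a correction for gene length, which was called (adjusted p = 0.0352, limma). An antisense gene, Gm47898, shares 90 exonic bases with Dtna, and whether the libraries kept the strand is not given in the sources used here.

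Dysf (chr6:84008590-84211060, + strand) had the widest spread of the members within WT and within AAV, relative to the mean. Normalized counts were 5174.1, 4675.2, 2092.4 and 3538.3 in WT, 3046.4, 2503.9, 2471.2 and 3036.3 in KO, and 3455.2, 2487.8, 2819.1 and 6888.3 in AAV. WT replicate 3 was below all KO libraries while the other WT libraries were above them, and AAV replicate 4 was the highest of the 12. Means were 3870 ± 1370, 2764 ± 320 and 3913 ± 2020 (SD, n = 4 each). The log2 difference between KO and WT was -0.41 (interval -0.97 to 0.15, adjusted p = 0.239, limma), and without WT replicate 3 it was -0.68 (adjusted p = 0.00401, limma), whereas without WT replicate 2 it was -0.29. Between AAV and KO it was 0.39 (interval -0.22 to 1, adjusted p = 0.306, limma), which fell to 0.07 without AAV replicate 4, and between AAV and WT -0.03 (interval -0.83 to 0.78, adjusted p = 0.98, limma), or -0.22 without both WT replicate 2 and AAV replicate 4. Antisense genes Gm33024 and Gm15475 share 105 and 352 exonic bases with Dysf.

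Levels of different genes were compared per kilobase of annotated exon. In the libraries labelled WT, the mean per kilobase was 4360 ± 867 for Sgca, 931 ± 62.1 for Sgcb, 639 ± 206 for Dag1, 465 ± 164 for Dysf, 155 ± 34.3 for Dtna, 113 ± 35.7 for Dmd, 61.4 ± 3.52 for Sgcd and 58.8 ± 16.6 for Utrn (normalized counts per kilobase, SD, n = 4). Among neighbours in this order, the ranges over the 4 libraries did not overlap between Sgca and Sgcb, between Sgcb and Dag1 or between Dysf and Dtna. Dag1 and Dysf, Dtna and Dmd, and Sgcd and Utrn did overlap in range, and Dmd and Sgcd overlapped only through WT replicate 2, whose Dmd level was 60.7 per kilobase. In KO, Sgcd was last at 39.7 ± 2.46 and Utrn stood at 53.7 ± 11.7. Dmd stood above Dtna in KO (151 ± 26.8 against 127 ± 9.34) and in AAV (140 ± 19.4 against 113 ± 21.3), with overlapping ranges. In AAV the order also placed Dysf (470 ± 243) before Dag1 (368 ± 85.1), with overlapping ranges. The lengths are the union of all annotated exons, so that a gene with many long alternative ends, such as Dmd or Dtna, may read low on this scale.

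Among 9744 genes with a mean normalized count of at least 100, the profiles over the 12 libraries most like those of Dmd, Dag1 and Sgcd were found by the root mean square difference of centred log2 values. For Dmd, whose own profile had a root mean square of 0.377, these were Creb1 (difference 0.127), Lrif1 (0.135) and Mll3 (0.142). For Dag1 (own value 0.584) they were Pstpip2 (0.152), Dnmbp (0.158) and Ngly1 (0.178). For Sgcd (own value 0.304) they were Traf3 (0.113), 1700025G04Rik (0.128) and Slc6a8 (0.133). None of these nearest genes was a member, and the member closest to Dag1 was Sgcb at 0.463, in rank 1775. The closest member to Sgcd was Dtna at 0.222, in rank 268, and that to Dmd was Utrn at 0.352, in rank 1293.

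Other components of the complex were read from a list of 11 genes, of which 9 were in the tables (Sgcz and Sntg1 were not analysed here). Between KO and WT, 3 of these 9 were called, 1 higher and 2 lower (33.3%, beside 27.6% of all genes). Dtnb, a second dystrobrevin that is mainly found outside muscle, was at 45.2, 41.5, 56 and 41 normalized counts in WT and rose to 82.1, 83, 115.3 and 107.9 in KO (log2 difference 1.06 ± 0.2, adjusted p = 0.0066, limma). In AAV it was at 33.1, 45.3, 81.5 and 39.5 and was lower than in KO by -1.02 on the log2 scale (adjusted p = 0.0267, limma). Nos1, the neuronal nitric oxide synthase that dystrophin and syntrophin hold at the membrane, averaged 5968 ± 484 in WT, 3381 ± 1070 in KO and 5897 ± 736 in AAV (SD, n = 4 each). It fell between WT and KO (-0.88, adjusted p = 0.0177, limma) and was higher in AAV than in KO (0.85, adjusted p = 0.0222, limma), with no overlap in either case. Sspn, or sarcospan, a small membrane protein bound to the sarcoglycans, averaged 5054 ± 712 in WT, 3359 ± 173 in KO and 3771 ± 446 in AAV. Its log2 difference was -0.58 between KO and WT (adjusted p = 0.00967, limma) and 0.16 between AAV and KO (adjusted p = 0.286, limma). Dtnb and Nos1 were thus the 2 of 9 called between AAV and KO (22.2%, beside 26.3% of all genes), and limma called 0 of 9 between AAV and WT (2 with an unadjusted p under 0.05, 0 by edgeR and 0 by DESeq2). The count between AAV and KO was 0 without KO replicate 4 or AAV replicate 1, and 1 without KO replicate 1, 2 or 3 or AAV replicate 4 or with array weights.

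The remaining 6 partners were not called in any comparison. Among them, Sgce, a sarcoglycan found in many tissues, averaged 101.7 ± 22.6, 129.7 ± 13.7 and 111.9 ± 21.1 normalized counts in WT, KO and AAV (SD, n = 4 each). Sntb2, a syntrophin, averaged 111.9 ± 32.8, 80.87 ± 9.36 and 91.24 ± 26.6. Sntb1 and Sntg2, both also syntrophins, were low in all libraries (at most 29.9 and 25.7). Their log2 differences ran from -0.78 to 1.23 and missed the threshold in each comparison.

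Enzymes that build the laminin-binding sugars of dystroglycan were read from a list of 18 genes, 17 of them in the tables. Between KO and WT, 1 of 17 was called (5.88%, beside 27.6% of all genes), and lower: Pomgnt1, which adds a sugar to the O-mannose of dystroglycan, averaged 3092 ± 427 in WT and 2240 ± 127 in KO (log2 difference -0.46, adjusted p = 0.023, limma). This count was 9 without WT replicate 3, where 7163 of 14796 genes were called in all, and 0 without WT replicate 4 or any 1 of the KO libraries. It was 2 with DESeq2 or with all 12 libraries in 1 fit and 7 with array weights. In AAV against KO, 6 of 17 were called (35.3%, beside 26.3% of all genes), 4 higher and 2 lower, and the count was 1 without KO replicate 1 or AAV replicate 1, 2 without KO replicate 2, 3 or 4 and 3 without AAV replicate 4. It was also 1 with the replicate block and 3 with the GC correction or with all 12 libraries in 1 fit. Those higher included Dpm2 (0.42) and Dpm3 (0.87), and those lower were B3galnt2 (-0.67) and Rxylt1 (-0.53), all as log2 differences. B3galnt2, which adds N-acetylgalactosamine to a sugar chain of dystroglycan, averaged 3147 ± 676 in WT, 4036 ± 358 in KO and 2561 ± 455 in AAV. Its adjusted p was 0.0877 between KO and WT and 0.00981 between AAV and KO (limma). Dpm3, a subunit of the synthase of the mannose donor, averaged 258.8 ± 54.7, 156.1 ± 53.8 and 272.5 ± 43.9, with adjusted p-values of 0.0653 and 0.0392 (limma). Between AAV and WT, limma called 0 of 17 (4 with an unadjusted p under 0.05, 0 by edgeR and 0 by DESeq2).

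Laminins and other matrix ligands of dystroglycan gave 5 of 15 called between KO and WT, 3 higher and 2 lower (33.3%, beside 27.6% of all genes). Agrn, which encodes agrin, an organiser of the neuromuscular junction and a ligand of dystroglycan, differed in all 3 comparisons. Counts per gene do not show which form of agrin was read. Normalized counts were 206.3, 248.8, 191.5 and 207.7 in WT, 431.9, 419.9, 480.8 and 481 in KO, and 753.9, 775.2, 622.4 and 582.7 in AAV, with no overlap between any pair of groups. The log2 difference was 1.09 between KO and WT (adjusted p = 0.00101), 0.58 between AAV and KO (adjusted p = 0.0124) and 1.67 between AAV and WT (adjusted p = 0.00462), all by limma. Nid1, a basement membrane linker, averaged 564.9 ± 233 in WT, 1122 ± 219 in KO and 730.6 ± 117 in AAV and was called between KO and WT (1.07, adjusted p = 0.0235) and between AAV and KO (-0.61, adjusted p = 0.0266, limma), although the groups overlapped. Lamb2, the laminin chain found at the neuromuscular junction, was lower in KO than in WT (-0.73, adjusted p = 0.0207, limma) with means of 3792 ± 324 and 6461 ± 1750. The other 2 called between KO and WT were Lama4 (0.97) and Bgn (-0.74). In AAV against KO, 2 of 15 were called, Agrn and Nid1 (13.3%, beside 26.3%), and between AAV and WT 1 of 15, Agrn (6.67%, beside 1.29%). The count of 5 was 8 without WT replicate 3 (7163 of 14796 genes in all), 8 with the GC correction or array weights, 3 without WT replicate 2, 2 without WT replicate 1 or 4 or KO replicate 2, 3 or 4, and 1 without KO replicate 1. The count of 2 was 5 without AAV replicate 3 and 1 without AAV replicate 1 or KO replicate 1, 2 or 3, and 1 with the replicate block, total counts, array weights or all 12 libraries in 1 fit.

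Costamere proteins and the integrin link, which anchor the contractile apparatus to the membrane beside dystrophin, gave 11 of 22 called between KO and WT (50%, beside 27.6% of all genes), 1 higher and 10 lower, with a median log2 difference of -0.49 beside 0.02 over all genes. Actn2, an actinin of the Z-disc, averaged 30150 ± 6240 in WT, 8709 ± 2830 in KO and 23050 ± 7280 in AAV. It was lower in KO than in WT (-1.84, adjusted p = 0.00208) and higher in AAV than in KO (1.43, adjusted p = 0.00971, limma). The means of Actn3, another actinin on this list, were larger and ran the other way. They were 267000 ± 72800 in WT, 420000 ± 65200 in KO and 251900 ± 107000 in AAV, with overlapping groups. Des, which encodes the muscle intermediate filament desmin, behaved alike in direction, with -1.03 (adjusted p = 0.00874) and 0.72 (adjusted p = 0.0267, limma). Krt18, a keratin that pairs with Krt8, fell from 147.5, 530.5, 26.8 and 92.7 in WT to a mean of 11.71 ± 6.79 in KO, with no overlap (-3.38, adjusted p = 0.0119, limma), with 77.2, 31.2, 53.1 and 93.6 in AAV (2.38 against KO, adjusted p = 0.00729, limma). Of the 22, 6 were called between AAV and KO (27.3%, beside 26.3%), 4 higher and 2 lower. Between AAV and WT, 1 of 22 was called (4.55%, beside 1.29% of all genes): Sync, which encodes the desmin-binding syncoilin, at -0.87 (adjusted p = 0.0467, limma). The count of 11 was 6 without WT replicate 2 or KO replicate 2, 3 or 4 and 7 without WT replicate 1 or KO replicate 1. It was 8 without WT replicate 4 and 16 without WT replicate 3 or with array weights. Over all genes, calls in the fits with 6 were 2636, 2435, 2641 and 2575, beside 4097 with every library. In those with 7 they were 2844 and 2358, and in those with 16 they were 7163 and 6615. In AAV against KO, the count was 3 without AAV replicate 1 or KO replicate 1, 2 or 4, and 3 with the replicate block. It was 9 without AAV replicate 3, where 5071 of 14858 genes were called in all. The single call between AAV and WT was lost without WT replicate 1 or 2 or any 1 of the AAV libraries, and with the replicate block, total counts or the length correction, while there were 3 calls with DESeq2 and 2 with array weights, with all 12 libraries in 1 fit or without WT replicate 3.

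Among partners of dysferlin and genes of membrane repair, 16 of 22 were called between KO and WT (72.7%, beside 27.6% of all genes), 3 higher (Capn3, Ehd2 and Ano5) and 13 lower, with a median log2 difference of -0.68. Ahnak2, a giant scaffold protein related to the dysferlin partner Ahnak, had 9131.1, 9334.6, 534.1 and 7798.3 normalized counts in WT, 243.5, 153.1, 203.4 and 125.6 in KO, and 7651.9, 1759.9, 457 and 12827.6 in AAV. It was lower in KO than in WT by -4.62 on the log2 scale (adjusted p = 0.00436) and higher in AAV than in KO by 4.08 (adjusted p = 0.0108, limma). Anxa2, an annexin that gathers at membrane wounds, had 5617.5, 5489.5, 1038.9 and 5113.4 in WT and 752.7, 667.9, 755.9 and 480.1 in KO (-2.45, adjusted p = 0.00731, limma). In AAV it had 3281.5, 1728.7, 1132.6 and 6908.5 (1.98 against KO, adjusted p = 0.0153, limma). Capn2, a calcium-activated protease, averaged 4250 ± 1060 in WT, 2206 ± 96.4 in KO and 2695 ± 706 in AAV, and was called between KO and WT (-0.91, adjusted p = 0.0066) but not between AAV and KO (0.25, adjusted p = 0.271, limma). In Ahnak2, Anxa2 and Capn2 as in Dysf, WT replicate 3 was the lowest WT library and AAV replicate 4 the highest AAV library.

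Between AAV and KO, 10 of 22 genes of this list were called (45.5%, beside 26.3% of all genes), 9 higher and 1 lower (Ano5), and between AAV and WT limma called 0 of 22 (3 with an unadjusted p under 0.05, 0 by edgeR and 0 by DESeq2). That last count was 2 without WT replicate 3 and 6 with array weights. The count between KO and WT was 8 without WT replicate 1 or 4 and 10 without WT replicate 2 or KO replicate 1, 2 or 4. It was 11 without KO replicate 3 and 20 without WT replicate 3 or with array weights. Over all genes, calls in the fits with 8 were 2844 and 2353, beside 4097 with every library. In those with 10 they were 2636, 2358, 2435 and 2575, and in those with 20 they were 7163 and 6615. For AAV against KO the count was 5 without KO replicate 4 and 6 without KO replicate 1, 2 or 3 or AAV replicate 1, and 6 with the replicate block. It was 12 without AAV replicate 3, where 5071 of 14858 genes were called in all. Cav3 is on this list and on that of the costamere, so that the 2 counts share 1 gene.

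**Figure D4:**
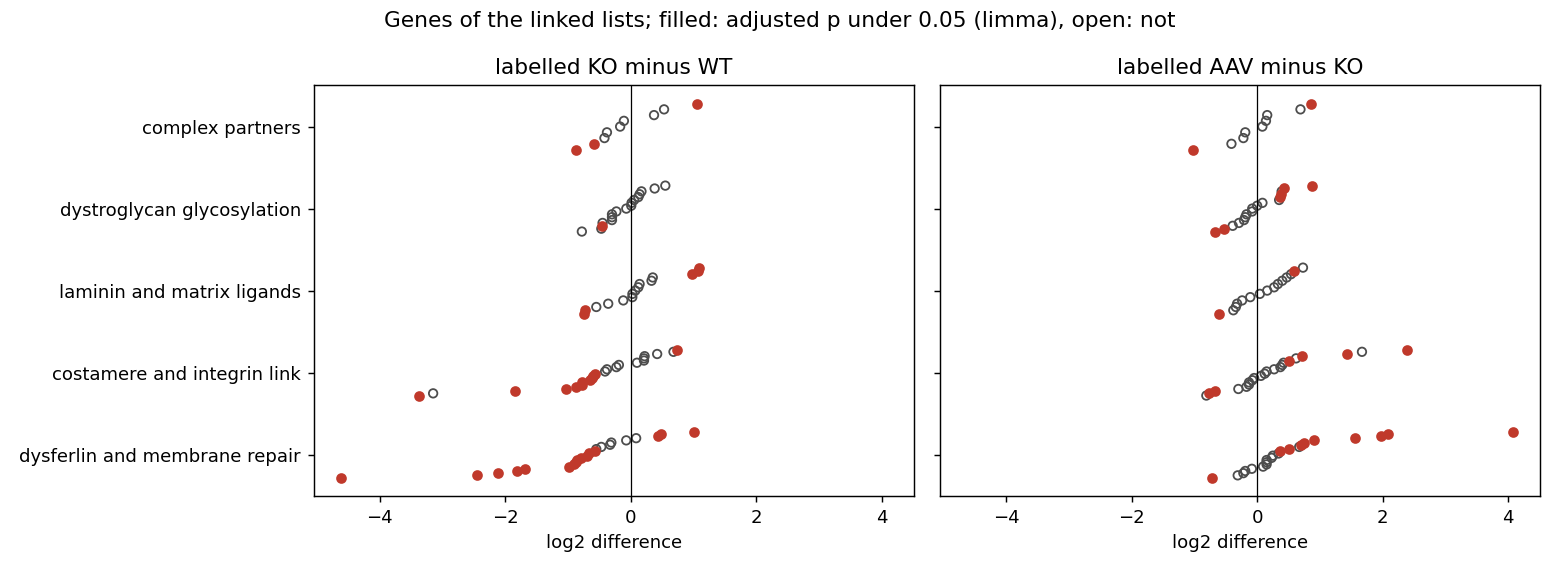
Log2 differences (horizontal axis) of each gene tested in 5 lists of partners, for KO against WT and AAV against KO, with filled points for an adjusted p under 0.05 by limma and open points for the others. Points of the dysferlin and membrane repair list reach -4.62 (Ahnak2) between KO and WT and 4.08 (Ahnak2) between AAV and KO.

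Markers of fibre type and of other cells also differed between the groups, and the counts below are of genes that passed limma's test. Beside them, 27.6% of all genes were called between KO and WT, 26.3% between AAV and KO and 1.29% between AAV and WT. Summed markers of slow fibres lay between 3396 and 6630 normalized counts in WT, 1112 and 1297 in KO and 2934 and 24410 in AAV, and 7 of 7 were called lower in KO than in WT and 6 of 7 called higher in AAV than in KO (7 called by edgeR and 7 by DESeq2). Markers of regenerating fibres summed to between 2191 and 9818 in WT, the lowest being WT replicate 3, 1500 and 1851 in KO and 2180 and 8135 in AAV, the highest being AAV replicate 4, with 8 of 8 called lower in KO than in WT and 3 of 8 called higher in AAV than in KO (6 called by edgeR and 6 by DESeq2). Endothelial markers summed to 1994 to 5397 in WT, 5094 to 6364 in KO and 3831 to 6501 in AAV (4 of 7 called higher in KO than in WT, 1 of 7 called lower in AAV than in KO). Smooth muscle and pericyte markers ran from 5645 to 12410, from 13100 to 15890 and from 9128 to 15040, with 2 of 8 called higher and 1 called lower between KO and WT, 1 of 8 called higher in AAV than in KO and another called higher in AAV than in WT. Macrophage markers ran from 1150 to 3374 in WT, from 638.4 to 1170 in KO and from 623.6 to 2749 in AAV (3 of 6 called lower and 1 called higher between KO and WT). Of the satellite cell markers 1 of 4 was called, higher in AAV than in KO. Of the mature fibre markers 1 of 7 was called, higher in KO than in WT, and fibroblast, adipocyte and Schwann cell markers gave 0 of 7, 0 of 5 and 0 of 6 calls by limma in each comparison. At most 1, 1 and 2 of these had an unadjusted p under 0.05 in a comparison, and edgeR and DESeq2 each called 1 fibroblast and 1 adipocyte marker, both between KO and WT, and 0 Schwann cell markers. Adipocyte markers summed to 7195 in KO replicate 3 and to 352.7 to 1072 in the other KO libraries, 204.8 to 2193 in WT and 844.3 to 1516 in AAV. No marker was at 0 throughout a group. Mitochondrial genes took 10% of the counts in WT replicate 3 and 3.64% to 6% in the other WT libraries, 6.28% to 8.24% in KO, and 3.11% in AAV replicate 4 beside 4.79% to 6.75% in the other AAV libraries. In whole muscle, fewer cells of a type and less RNA per cell cannot be told apart, and the part of these cell types in the differences of Sgcd, Dag1 and the linked genes was not tested.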

How the data were processed

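For each library the authors trimmed reads with Trim Galore 0.4.1 and checked them with FastQC 0.11.2, mapped them to GRCm38 with STAR, counted reads with a single location per gene with HTSeq 0.6.1, removed genes that never reached 10 reads and scaled each library by a DESeq2 1.16.1 size factor (tools as in the submitters' processing notes and the study's methods). The deposited signal is therefore not raw counts. The 2 deposited tables also hold the authors' log2 fold changes and standard errors, a Wald score, p-values and adjusted p-values, none of which was used. KO values in both tables differed by 0, which put AAV and WT on one scale. Whole reads were recovered for 100% of values (tolerance 0.05) in 12 libraries, with 22122233 to 47379737 reads, which limits the precision of genes with few reads. Columns left unmapped numbered 0.

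The main test was limma 3.58.1 (trend, pseudocount 1, values of at least 10 in any of 8 libraries) in R 4.3.3, with edgeR 4.0.16 and DESeq2 1.42.0 on recovered reads as alternatives. Fold changes are on the log2(value + 1) scale, which understates those of low genes. Alternatives changed the test, scaling, filter, pseudocount, GC and length corrections, weights, the replicate block, the fit over all libraries and each library in turn. Single values were compared by exact permutation. On simulated data limma recovered 95.5%, 96.5% and 97% of 200 genes changed by a log2 fold change of 1 in KO against WT, AAV against KO and AAV against WT (14477, 14403 and 14507 genes). These shares are not given for single members, and recovery at the spread of each member was not tested. Within WT the SD of the members ran from 5.74% (Sgcd) to 35.4% (Dysf) of the mean. Coordinates and exon lengths came from GENCODE M21 on GRCm38, and promoter windows from RefSeq on GRCm38.p6, which held 7 of 8 members. Tables and plots were made in Python 3.11.15 with pandas 2.3.3, numpy 2.4.6 and matplotlib 3.10.9. Members and lists were chosen with earlier results of these data known. Named were the members, Gaa, the measured complex partners, from each other list the 3 genes ranked first by adjusted p in KO against WT, and the 3 genes most like Dmd, Dag1 and Sgcd; further list genes were named after their values were seen. Nothing in the labels says whether animals were littermates. The p-values of limma, edgeR and DESeq2 set each difference between groups against the variation among libraries within a group. Some genes of the lists are counted but not reported here by name.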

Additional observations from a re-analysis of the deposited data

Results flagged for a closer look

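In 27 groups of 4 libraries, covering the 8 members and Gaa, the gap of the highest or lowest library to its neighbour was set against the range of the group, and 6 exceeded the 95% critical value of Dixon's test for 4 samples. Chance marks about 1 in 20 groups. For Dmd, the share of the range was 0.842 at KO replicate 1, the highest of its group, and 0.8291 at WT replicate 2, the lowest of its group. For Dtna it was 0.84 at KO replicate 3, the lowest, and 0.855 at WT replicate 1, the highest. For Gaa it was 0.99 at WT replicate 2 and 0.952 at AAV replicate 4, both the highest of their groups.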

How the results depend on the processing

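Of 512 alternatives for single members, 478 kept the direction and the side of the threshold, 10 moved past the threshold and 24 changed direction. Sgcd stayed called between KO and WT under 21 of 21 alternatives (-0.97 with the GC correction to -0.6), as did Dag1 between AAV and KO (-1.32 to -1.02). The number of members called between KO and WT, 1 as reported, was 2 with the length correction (Sgcd and Dtna), 2 with array weights and 1 to 4 with a library left out (4 without WT replicate 3: Sgcd, Dag1, Sgca and Dysf, where 7163 of 14796 genes were called in all). Between AAV and KO, it was 2 with DESeq2 and 1 to 2 with a library left out, and between AAV and WT 1 with all 12 libraries in 1 fit (Sgcd, adjusted p = 0.0372, limma; 901 genes in all) and 2 with array weights (Sgcd and Dtna; 1421 genes in all), against 193 genes as reported. The replicate block moved Sgcd in KO against WT to an adjusted p of 0.0247 (-0.63) and Dag1 in AAV against KO to 0.0192 (-1.19), by limma, and changed no call of a member; same-numbered libraries stand for different animals, with correlations of -0.355 to 0.554. With it, glycosylation genes called between AAV and KO numbered 1. Dmd in AAV against KO was 0.079 with total counts, 0.013 with the length correction, 0.12 with the GC correction and -0.17 to 0.023 with a library left out. Sgca was 0.087 in KO against WT with the length correction, and in AAV against KO -0.008 with edgeR, -0.18 with the length correction, -0.21 with the GC correction and -0.016 to 0.047 with a library left out. Sgcb in KO against WT was -0.053 with the GC correction, and Dtna in AAV against KO 0.017 with total counts. Dysf in AAV against WT was 0.051 with edgeR, 0.025 with DESeq2, 0.21 with total counts and -0.34 to 0.15 with a library left out. With a library left out, Utrn in KO against WT ran from -0.29 to 0.027 and Sgcd in AAV against KO from -0.0018 to 0.18. Total counts shifted the median of all genes by 0.19 between AAV and KO and 0.15 between AAV and WT. Over all genes, calls ran from 2353 to 7163, from 1961 to 5071 and from 10 to 1421 in KO against WT, AAV against KO and AAV against WT, beside 4097, 3910 and 193 as reported. The cause was not tested. Depth limits genes with few reads, such as Sntb1 and Sntg2.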
